A study of Mus musculus and Homo sapiens with 56 samples.

Results

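The genes described here are 8 markers of trophectoderm and simple epithelium, namely the transcription factor genes Tead4, Cdx2, Tfap2c, Gata3, Elf5 and Hand1 and the keratin genes Krt8 and Krt18. They were taken by gene symbol, and all 8 were found among the 52459 genes of the count table. The RNA came from 2 libraries of mouse embryonic stem cells labelled D395A and 2 libraries of their wild-type parent E14TG2a (WT). D395A names a substitution in METTL3 that is known to inactivate this m6A methyltransferase, and the labels do not say how many clones carry it. Both lines were untreated and grown on gelatin in N2B27-based medium with LIF, the MEK inhibitor PD0325901 and the GSK3β inhibitor CHIR99021. Positions of N6-methyladenosine (m6A) on chromatin RNA came from 1 peak list per genotype.

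Trophectoderm is the outer epithelium of the blastocyst and gives rise to the trophoblast of the placenta. In mouse embryos TEAD4, with its coactivator YAP, switches on Cdx2 in outer cells, GATA3 acts beside CDX2, and TFAP2C (AP-2γ) takes part in the same program. ELF5 maintains trophoblast stem cells, HAND1 drives their differentiation to giant cells, and keratins 8 and 18 pair into the filaments of this first epithelium. Embryonic stem cells normally keep this program low, in part through POU5F1 (OCT4), while several of its regulators also have roles in pluripotent cells.

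Total counts ran from 12743677 to 18151353 in the D395A libraries and from 13953069 to 19246342 in the WT libraries. The labels do not say whether the libraries of a genotype came from separate cultures, so the p-values measure the spread between these libraries only. Mettl3 RNA was at 30.6 and 33.9 CPM (counts divided by the scaled library size in megareads) in D395A and at 36.2 and 35.5 CPM in WT. A substitution leaves the transcript countable, so this does not check the genotype. All 8 mouse embryonic stem cell markers examined were present in every library. Their summed levels were 2039 and 1968 CPM in D395A and 4212 and 4103 CPM in WT. Of these markers 7 were lower in D395A, where 34.3% of all tested genes were lower. In these bulk libraries, fewer cells that express a gene and less RNA per cell cannot be told apart.

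The 8 genes did not move as a unit. Tead4 was 5.28-fold lower in D395A, while Cdx2, Gata3 and Krt18 were higher by 4.35-fold, 4.13-fold and 2.06-fold and Tfap2c by 1.32-fold. Krt8 did not pass the test, and Elf5 and Hand1 were near 0 CPM in both genotypes, which here means a group mean under 1 CPM. Cdx2 and Gata3 were near 0 in WT alone. Of the 6 genes with enough counts to be tested, 4 were higher and 1 was lower at a threshold of 0.05 (quasi-likelihood test of edgeR, Benjamini-Hochberg adjusted over all tested genes, as for every adjusted p given here). Over all 17778 tested genes 71.1% were called, 36.8% higher and 34.3% lower, so 5 called of 6 is near that background. At least 2-fold changes were called in 4 of the 6, against 31.8% of all tested genes. The libraries of the genotypes did not overlap for any of the 6, against 85.1% of all tested genes. Their median log2 fold change was 0.72, beside 0.00 over all tested genes.

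**Figure D1:**
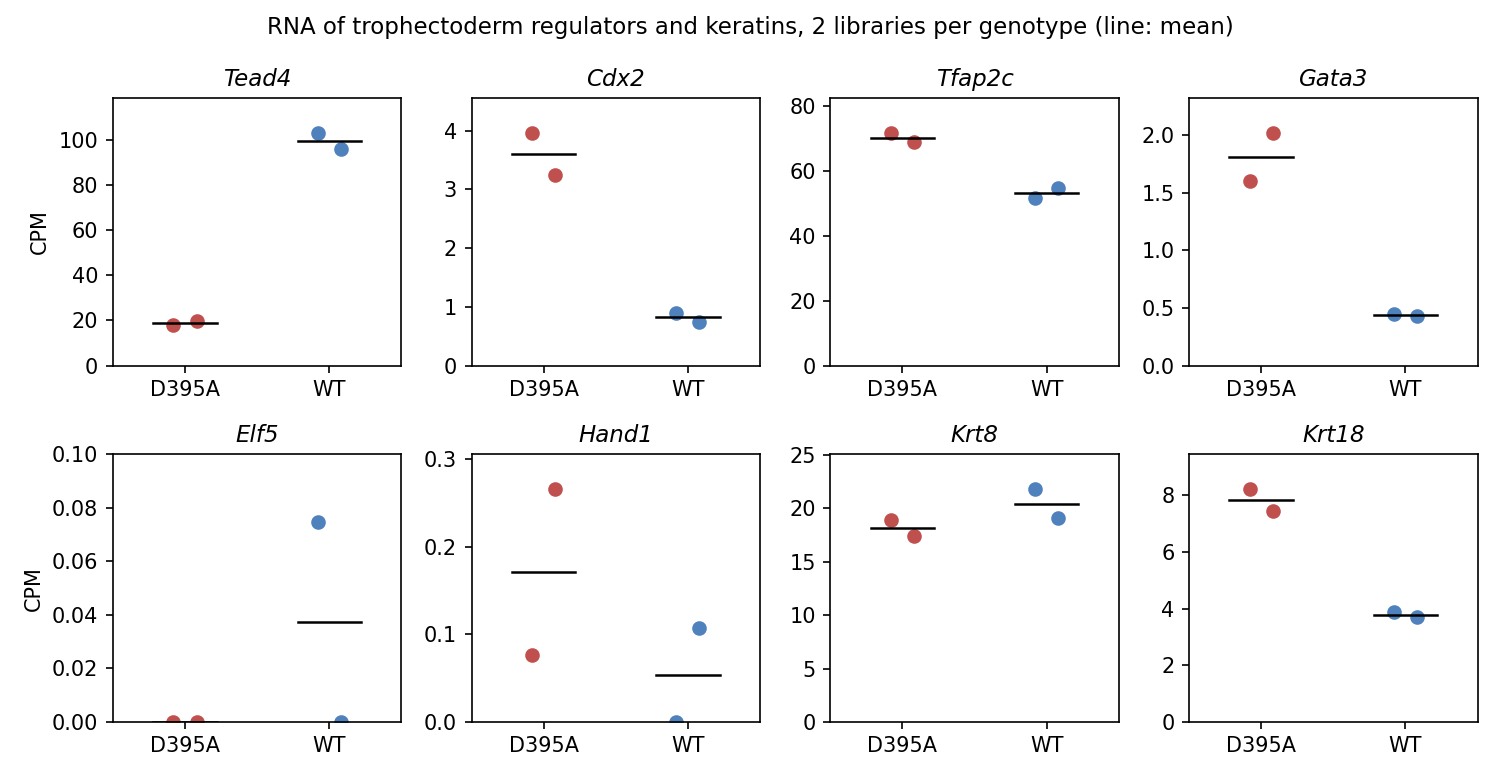
CPM of each of the 8 genes in the 2 D395A libraries and the 2 WT libraries, each panel on its own linear axis from 0, with a line at the group mean. Tead4 is lower in D395A, Cdx2, Gata3, Krt18 and Tfap2c are higher, the Krt8 groups lie close together, and Elf5 and Hand1 stay below 0.3 CPM in every library.

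Tead4 encodes the TEAD factor that is required for trophectoderm in mouse embryos (chromosome 6, 128224288 to 128300823, minus strand, mm10). It stood at 17.9 and 19.6 CPM in the D395A libraries, against 103 and 96.1 CPM in the WT libraries. Both D395A values were far below both WT values, and the log2 fold change was -2.40 ± 0.08 (SE, adjusted p = 4.31e-12). Per kilobase of exon, the scale on which genes can be compared, Tead4 ranked above 51.2% of tested genes in D395A and above 86.7% in WT. Its neighbour Tulp3, 20338 bases away, stood at 117 ± 8.26 CPM in D395A and 122 ± 5.47 CPM in WT (mean ± SD, n = 2 libraries per genotype here and below), with an adjusted p of 0.411.

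The other TEAD genes did not follow Tead4 in a uniform way. Tead1 also fell, to 290 and 337 CPM in D395A against 517 and 503 CPM in WT (log2 fold change -0.70 ± 0.08, adjusted p = 1.53e-06). Tead2 rose, with 166 and 156 CPM in D395A against 115 and 110 CPM in WT (0.52 ± 0.06, adjusted p = 3.78e-06), and Tead3 rose 1.7-fold (adjusted p = 0.000116). Per kilobase of exon, Tead4 made up 7.74% and 8.24% of the summed TEAD level in D395A and 30.8% and 30.2% in WT. Tead2 took the first place in D395A with 53.9% and 49.5%, against 25.9% in each WT library, where Tead1 led with 41.1% and 41.9%. The summed TEAD level was 65.1 ± 1.28 CPM per kilobase in D395A and 90.5 ± 3.04 CPM per kilobase in WT.

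The Hippo pathway controls TEAD activity through YAP and TAZ. Of 22 tested TEAD partners and Hippo genes, 12 rose, 6 fell and 4 did not pass, so 81.8% were called, near the 71.1% of all tested genes. Their median log2 fold change was 0.23. Amot, which encodes angiomotin, an activator of LATS kinases in inner cells of the blastocyst, was at 35.5 and 42.1 CPM in D395A and 2.47 and 2.63 CPM in WT (15.2-fold, adjusted p = 8.66e-12). The kinase gene Lats2 was at 21.6 and 23.9 CPM in D395A and 6.95 and 6.55 CPM in WT. Ajuba and Limd1, which encode LIM proteins that hold LATS kinases in check, rose 2.7-fold and 2.43-fold, and Vgll3 and Vgll4, which encode TEAD cofactors, rose 2.09-fold and 2.03-fold. The coactivator gene Yap1 differed little, at 245 and 256 CPM in D395A and 211 and 213 CPM in WT (adjusted p = 0.00289), and its relative Wwtr1 (TAZ) fell to 78.7 and 83.2 CPM in D395A against 113 and 117 CPM in WT (adjusted p = 5.1e-06).

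Known targets of YAP and TEAD were examined next. Of 14 tested targets, 11 rose and 3 fell, where 36.8% of all tested genes rose and 34.3% fell. Their median log2 fold change was 0.87. The growth factor gene Tgfb2 was at 17.3 and 19.4 CPM in D395A and 1.42 and 1.66 CPM in WT (11.8-fold, adjusted p = 2.19e-10). The phosphatase gene Ptpn14 rose 3.85-fold and the matricellular gene Cyr61 rose 2.92-fold, as did Fjx1 by 2.62-fold. The matricellular gene Ctgf fell to 11 and 13.8 CPM in D395A against 18.5 and 17.8 CPM in WT (adjusted p = 0.00113), and 23.2% of its exonic bases are shared with a gene on the opposite strand. Lats2, Ajuba and Amotl2 stand in both of these lists. Ankrd1, another common target, had 0.304 and 0 CPM in D395A and 0 counts in both WT libraries.

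**Figure D2:**
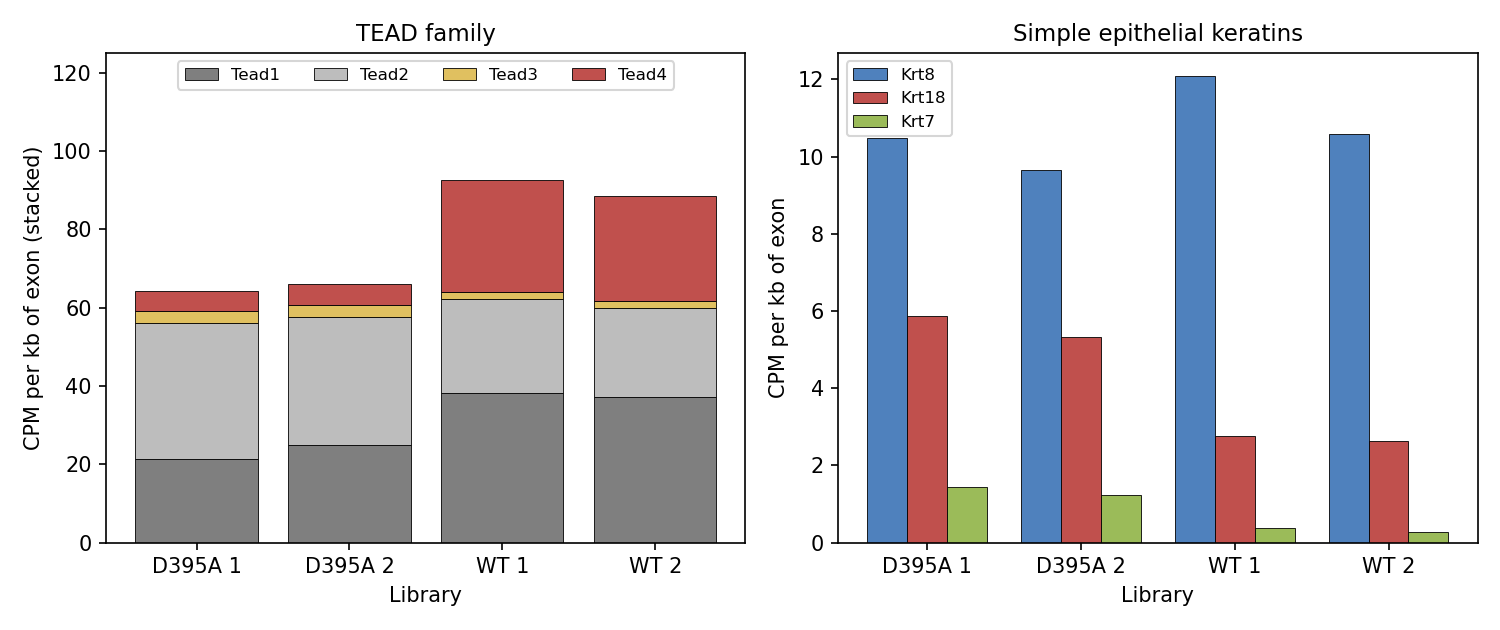
Left, CPM per kilobase of exon of Tead1 to Tead4, stacked, in each D395A and WT library; right, the same scale for Krt8, Krt18 and Krt7 side by side. The Tead4 segment is about 5 in both D395A libraries and above 26 in both WT libraries, and Krt18 and Krt7 bars are taller in D395A while Krt8 bars change little.

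Cdx2, the caudal homeobox factor that defines trophectoderm (chromosome 5, 147300805 to 147307270, minus strand), stood at 3.96 and 3.24 CPM in D395A and 0.897 and 0.751 CPM in WT. These values come from 52 and 61 counts in D395A and 12 and 14 counts in WT. The log2 fold change was 2.12 ± 0.31 (SE, adjusted p = 2.53e-05), and the ratio of the summed counts was 4.36 with an exact binomial 95% interval of 2.82 to 6.95, which covers counting error only. Gata3, the GATA factor of trophectoderm (chromosome 2, 9857078 to 9890034, minus strand), had 21 and 38 counts in D395A and 6 and 8 counts in WT, or 1.6 and 2.02 CPM against 0.448 and 0.429 CPM. Its log2 fold change was 2.05 ± 0.40 (adjusted p = 0.000328). Neither gene overlapped between genotypes, and both were low: per kilobase of exon, Cdx2 ranked above 30.5% and Gata3 above 11.8% of tested genes in D395A. On the opposite strand, Gm13256 shares 3.9% of the exonic bases of Gata3 and had 0 and 1 counts in D395A and none in WT.

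Cdx1, far more abundant than Cdx2 in these cells, fell to 73.7 and 63.7 CPM in D395A against 108 and 107 CPM in WT (adjusted p = 1.87e-06). Cdx4 had 0.913 and 0.744 CPM in D395A and 0.149 and 0.268 CPM in WT (adjusted p = 0.00535). Gata2, which shares trophoblast roles with Gata3, fell to 4.34 and 2.98 CPM in D395A against 12 and 12.4 CPM in WT, and the endoderm factor gene Gata4 fell 4.78-fold. The ETS relatives Elf1 and Elf2 rose 2.09-fold and 1.38-fold. Among the 10 tested AP-2, GATA, caudal, HAND and ETS relatives 3 rose, 5 fell and 2 did not pass, so 80% were called, near the 71.1% of all tested genes. Their median log2 fold change was -0.09.

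Tfap2c, the AP-2γ gene (chromosome 2, 172549593 to 172558622, plus strand), was the most abundant of the 8 genes in D395A per kilobase of exon. It stood at 71.7 and 68.8 CPM in D395A and 51.6 and 54.7 CPM in WT, a log2 fold change of 0.40 ± 0.07 (adjusted p = 0.000126). The change was small, and the groups did not overlap. Its relative Tfap2a (AP-2α), with 14.6% of exonic bases shared with the opposite strand, fell to 9.59 and 7.66 CPM in D395A against 22 and 22.3 CPM in WT. Tfap2d and Tfap2b were seen almost only in 1 library: Tfap2d had 7.53 CPM in D395A replicate 1 and 0.0532 CPM in D395A replicate 2, with no count in WT, and Tfap2b had 2.43 and 0.0532 CPM in D395A and 0.299 and 0.161 CPM in WT. Hand2, at 1.75 and 0.319 CPM in D395A and 0.224 and 0.161 CPM in WT, and the mesenchymal gene Prrx1, at 2.74 and 0.319 CPM in D395A and 0 in WT, were likewise highest in D395A replicate 1. Without that library the log2 fold changes of Tead4, Cdx2, Tfap2c, Gata3, Krt8 and Krt18 were -2.31, 2.02, 0.40, 2.22, -0.19 and 1.01.

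Hand1 and Elf5 had too few counts for the filter and were left out of the test. Hand1 (chromosome 11, 57828705 to 57832818, minus strand) had 1 and 5 counts in D395A and 0 and 2 counts in WT, or 0.0761 and 0.266 CPM against 0 and 0.107 CPM. Its ratio of summed counts was 3.01 with an exact 95% interval of 0.538 to 30.5, so no difference was detectable at this depth. Elf5 (chromosome 2, 103411688 to 103450989, plus strand) had no count in D395A, where 3 counts over the group would be 0.0939 CPM, and a single count in WT replicate 1.

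The keratin pair split. Krt8, the type II partner (chromosome 15, 101996711 to 102004342, minus strand), stood at 18.9 and 17.4 CPM in D395A and 21.8 and 19.1 CPM in WT. The groups lay next to each other without overlap, and the log2 fold change of -0.17 ± 0.10 did not pass (adjusted p = 0.161). Krt18, the type I partner on the opposite strand 23874 bases away (102028216 to 102032026), was at 8.22 and 7.44 CPM in D395A and 3.88 and 3.7 CPM in WT. Its log2 fold change was 1.04 ± 0.18 (adjusted p = 0.000109). Per kilobase of exon the Krt18 level was 0.559 and 0.55 of the Krt8 level in the D395A libraries and 0.23 and 0.25 in the WT libraries. These ratios did not overlap, and with 2 libraries against 2 an exact permutation test cannot go below p = 0.333. A Krt8 pseudogene and other similar sequences exist in the mouse genome, and the sources used here do not give the treatment of reads shared with them.

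Of 36 other keratin genes in the table, 5 had enough counts to be tested, and 1 rose, 2 fell and 2 did not pass, with 71.1% of all tested genes called. Krt7, a simple epithelial keratin of trophectoderm, was at 10.1 and 8.61 CPM in D395A and 2.69 and 1.93 CPM in WT (4.1-fold, adjusted p = 6.68e-07). Krt42 fell to 0.533 and 0.478 CPM in D395A against 11.1 and 10.5 CPM in WT, and Krt17 to 0.304 and 0.266 CPM against 3.44 and 3.43 CPM. The epidermal keratins Krt5, Krt14 and Krt15 had at most 1 count each in the D395A libraries, 22, 15 and 12 counts in WT replicate 1 and no count in WT replicate 2. Krt19 had 0.761 and 0.638 CPM in D395A, and 2.54 CPM in WT replicate 1 against 0.429 CPM in WT replicate 2. Without WT replicate 1 the log2 fold changes of Krt8 and Krt18 were -0.09 and 1.06.

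Of 22 tested genes that anchor keratins or act in epithelial junctions, 10 were higher, 8 were lower and 4 did not pass, shares near those of all tested genes (36.8% higher, 34.3% lower). The desmosomal genes Jup and Dsp fell 3.31-fold and 2.16-fold, to 82.3 ± 8.65 and 66.2 ± 2.83 CPM in D395A against 274 ± 17.6 and 143 ± 0.806 CPM in WT. The tight junction gene Cldn6 rose 5.68-fold, the desmocollin gene Dsc2 rose 3.3-fold, the microvillus gene Vil1 rose 2.7-fold and Evpl, which encodes envoplakin, rose 3.92-fold.

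Sequences around a RefSeq start are shown for the 3 genes that rose at least 2-fold, Cdx2, Gata3 and Krt18, and for Krt8, the partner of Krt18 that did not pass. Each runs 5′ to 3′ on the gene's strand over 250 bases before and 50 bases from the start (RefSeq, GRCm38.p6, the assembly that mm10 names), at chr5:147307200-147307499, chr2:9878551-9878850, chr15:102027966-102028265 and chr15:102004293-102004592 in that order. The RefSeq start lies at the gene start of the count table for Krt18 and Krt8 and 21 bases downstream of it for Cdx2. For Gata3 it lies 11434 bases inside the gene body given above, so this window is not at the gene start of the count table. Capitals mark matches, on either strand, to the letters known for TEAD factors, GGAATG, for AP-2 factors, GCCNNNGGC, for GATA factors, AGATAA, for the GC box, GGGCGG, and for the TATA box, TATAAA.
Cdx2: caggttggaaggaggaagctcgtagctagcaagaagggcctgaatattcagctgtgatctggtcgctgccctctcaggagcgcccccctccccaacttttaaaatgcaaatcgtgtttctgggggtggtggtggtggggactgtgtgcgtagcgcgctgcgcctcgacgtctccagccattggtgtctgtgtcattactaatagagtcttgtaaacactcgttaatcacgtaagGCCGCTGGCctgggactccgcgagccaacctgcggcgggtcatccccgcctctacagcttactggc
Gata3: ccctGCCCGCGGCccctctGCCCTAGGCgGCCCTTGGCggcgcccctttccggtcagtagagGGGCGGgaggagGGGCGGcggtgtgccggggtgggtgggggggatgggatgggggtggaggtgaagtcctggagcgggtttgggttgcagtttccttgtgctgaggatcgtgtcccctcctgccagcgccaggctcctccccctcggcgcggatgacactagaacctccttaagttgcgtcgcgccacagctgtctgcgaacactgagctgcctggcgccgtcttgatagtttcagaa
Krt18: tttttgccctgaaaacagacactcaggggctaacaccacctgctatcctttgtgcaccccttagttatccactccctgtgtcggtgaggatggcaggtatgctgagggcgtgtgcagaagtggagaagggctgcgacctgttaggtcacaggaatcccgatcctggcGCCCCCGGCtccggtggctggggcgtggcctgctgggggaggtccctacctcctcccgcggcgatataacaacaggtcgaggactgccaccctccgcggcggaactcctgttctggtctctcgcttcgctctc
Krt8: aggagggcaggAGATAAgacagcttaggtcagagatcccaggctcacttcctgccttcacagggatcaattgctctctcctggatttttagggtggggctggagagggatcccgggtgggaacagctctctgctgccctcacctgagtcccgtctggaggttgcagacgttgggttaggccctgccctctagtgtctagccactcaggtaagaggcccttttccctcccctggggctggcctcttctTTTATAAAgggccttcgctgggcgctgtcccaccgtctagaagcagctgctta

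The AP-2 letters occur once in the Cdx2 window, at position -16 from the start, once in the Krt18 window, at position -83, and 3 times in the Gata3 window. They are absent from these letters of Krt8 and from the 2 Elf5 windows, which are not shown. The AP-2 letters occur in 16.6% of 32851 promoter windows of the same length. Those windows have a median GC content of 52.7%, and the windows shown have 57.3% for Cdx2, 67.3% for Gata3, 61.3% for Krt18 and 58% for Krt8, so the shares given here are not matched on GC. The Krt8 window instead holds AGATAA, seen in 11.2% of windows, and 2 overlapping TATAAA matches on opposite strands next to the start, seen in 13.6%. The Gata3 window holds 2 matches of GGGCGG, which occurs in 35.7% of windows. The TEAD core, in 14.7% of windows, was not matched in any of the 4, and 1 match stood in 1 of the 2 Elf5 windows, at position -173. A match is a stretch of letters and not a measured binding site. Promoter windows were at hand for 5 of the 8 genes, the fifth being Elf5, and Tead4, Tfap2c and Hand1 had none in the table used.

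The m6A peak lists place peaks in the same 3 genes of the 8 in both genotypes: Tead4, Tfap2c and Elf5. Over all tested genes, 52.6% had a D395A peak and 66.5% had a WT peak in the gene body. The lists are not on equal footing, since the smallest -log10 values show a threshold on p for the D395A list and on q for the WT list. Of the D395A list, 13.6% of 38823 peaks reach a q of 0.05, and all 48445 WT peaks do. Median fold enrichment was 2.66 over the D395A list and 6.31 over the WT list, so fold enrichments cannot be compared directly between them. Percentiles below rank a peak's fold enrichment within its own list. With 1 list per genotype no difference between them can be tested. Fold enrichment, -log10 p and -log10 q are each peak's own values from the authors' deposited table.

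In D395A, Tfap2c had 1 peak, at the first exon block (chromosome 2, 172549523 to 172549820), with 3.1-fold enrichment and a -log10 q of 0.373. Its fold enrichment was at the 77.5 percentile of the D395A list. In WT it held the 2 most enriched peaks of the set. The first of these, 2288 bases long (172549530 to 172551817), covers the gene start and reaches over the first 3 exon blocks, with 17.2-fold enrichment, at the 93.9 percentile of the WT list. It overlaps the D395A peak. The second (172556876 to 172557651) lies at the last of 9 exon blocks with 13.3-fold enrichment, where the D395A list has no peak.

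Tead4 had 4 D395A peaks and 3 WT peaks. All 4 D395A peaks were intronic, from 2.32-fold to 3.87-fold enriched (percentiles 27.8 to 93.1 of the D395A list). None of them reached a -log10 q of 1.3, which corresponds to a q of 0.05. The WT peak with the best q (-log10 q of 90, 7.53-fold) lies over exon blocks 12 and 13 of 14, at chromosome 6, 128227967 to 128228894. The other WT peaks were intronic, in intron 10 (4.88-fold) and intron 1 (6.71-fold). The WT peaks of Tead4 were at percentiles 29.7 to 61 of the WT list. The intron 10 peak is the 1 place where the lists overlap in Tead4, with 3.48-fold enrichment in D395A. Between the genotypes Tead4 RNA also differed 5.28-fold, and its part in which peaks were called was not tested.

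Elf5 held 2 D395A peaks, of 2.35-fold and 3.22-fold enrichment (percentiles 30.5 and 81.1 of the D395A list) and -log10 q of 0 and 0.575. It held 1 WT peak, in intron 5, with 4.07-fold enrichment (percentile 18 of the WT list) and a -log10 q of 6.7. The peaks of the 2 lists do not overlap each other, and the gene had 1 RNA-seq count over all 4 libraries. The peaks carry no strand. Cat, on the minus strand 2860 bases beyond the 3′ end of Elf5, was at 191 ± 6.71 CPM in D395A and 205 ± 6.35 CPM in WT.

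No peak of either list fell in Cdx2, Gata3, Hand1, Krt8 or Krt18. The nearest peaks to Krt8 lay 84052 bases away in the D395A list and 90792 bases away in the WT list, and those to Gata3 29106 and 25456 bases away. Krt8 stood between 10 and 50 CPM in both genotypes, a range in which 63.3% of 4881 tested genes had a peak in D395A and 78.1% of 4626 in WT. Of genes at 1 to 10 CPM, the range of Krt18, 31.4% had a peak in D395A and 59.1% in WT. These shares are matched on CPM only and not on the length of the gene body, over which peaks were counted.

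**Figure D3:**
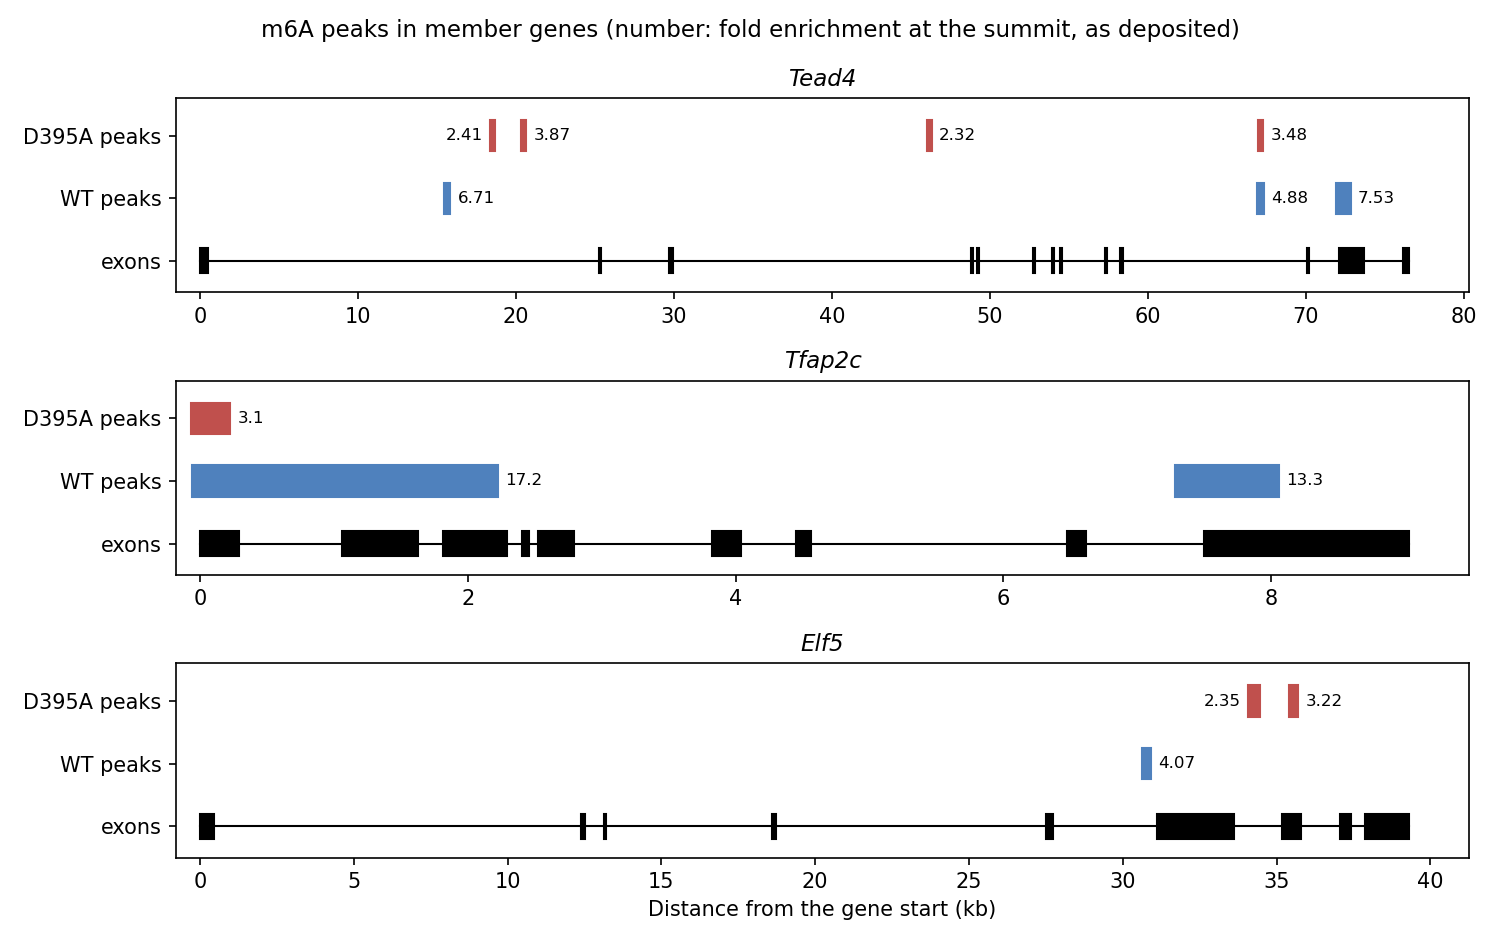
m6A peaks of the D395A list (upper row) and the WT list (middle row) along Tead4, Tfap2c and Elf5, with exon blocks (lower row), against distance from the gene start in kb. Numbers are the authors' deposited fold enrichment: no D395A peak exceeds 3.87, and WT peaks reach 17.2 and 13.3 in Tfap2c and 7.53 in Tead4. Median fold enrichment is 2.66 over the whole D395A list and 6.31 over the whole WT list.

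Of 27 other trophectoderm and trophoblast stem cell genes tested, 12 rose, 11 fell and 4 did not pass, shares near the 36.8% higher and 34.3% lower of all tested genes, and among the 17 with no opposite-strand overlap 9 rose and 5 fell. Their median log2 fold change was 0.46. Genes that rose include Fgfr2, the receptor for the FGF signal that sustains trophoblast stem cells, at 29.6 and 28.9 CPM in D395A and 1.2 and 1.4 CPM in WT, the homeobox gene Rhox6, at 8.06 and 6.43 CPM against 0.523 and 0.376 CPM, and Cdh3 (P-cadherin), at 45.6 and 49.5 CPM against 4.78 and 4.56 CPM. Bmp8b, with 12.2% overlap, was at 5.63 and 3.51 CPM in D395A and 0.523 and 0.268 CPM in WT. Genes that fell include the T-box factor gene Eomes, which acts beside Cdx2 in trophoblast stem cells, at 2.13 and 2.02 CPM in D395A and 13.6 and 14.3 CPM in WT, and Tbx3, at 24.3 and 26.6 CPM against 536 and 520 CPM.

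Genes of differentiated trophoblast were mostly silent. Of 14 in the table, 8 had no count in any library, among them the placental lactogen genes Prl3d1 and Prl3b1 and the spongiotrophoblast gene Tpbpa, and 4 had enough counts to be tested. Among these Flt1 (VEGF receptor 1) was at 9.28 and 12.1 CPM in D395A and 1.27 and 0.912 CPM in WT, Slc16a3 rose 2.26-fold, and Pgf rose with an adjusted p of 0.00336.

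Of 8 tested pluripotency genes, 6 were lower and none was higher, where 34.3% of all tested genes were lower. All but Sall4 are also among the 8 stem cell markers given above, so the lists show nearly the same genes. Tdgf1, Klf4, Zfp42, Esrrb and Nanog fell 8.13-fold, 2.57-fold, 2.45-fold, 1.79-fold and 1.69-fold. Pou5f1, with 14.1% overlap, fell to 308 and 272 CPM in D395A against 482 and 503 CPM in WT (adjusted p = 3.83e-07). Sox2 stood at 280 and 243 CPM in D395A and 292 and 264 CPM in WT and did not pass. Primitive endoderm, which also makes keratins 8 and 18, had 3 markers higher and 3 lower of 9 tested (66.7% called, beside 71.1% of all tested genes), with Foxa2, Dab2 and Col4a1 higher, Lama1, Gata4 and Sparc lower, summed levels of 198 and 221 CPM in D395A and 570 and 568 CPM in WT, and Afp at 0 in every library. Fibroblast feeder markers had 3 higher (Dcn, Acta2 and Twist1) and 3 lower (Col1a1, Col1a2 and Pdgfrb) of 8 tested. That is 75% called, beside 71.1% of all tested genes. Dcn had 28 and 31 counts in D395A and none in WT. The feeder markers summed to 31.5 and 26.6 CPM in D395A and 31.8 and 32.1 CPM in WT, with S100a4 at 0 throughout. The part of such cells in the values of the 8 genes was not tested.

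**Figure D4:**
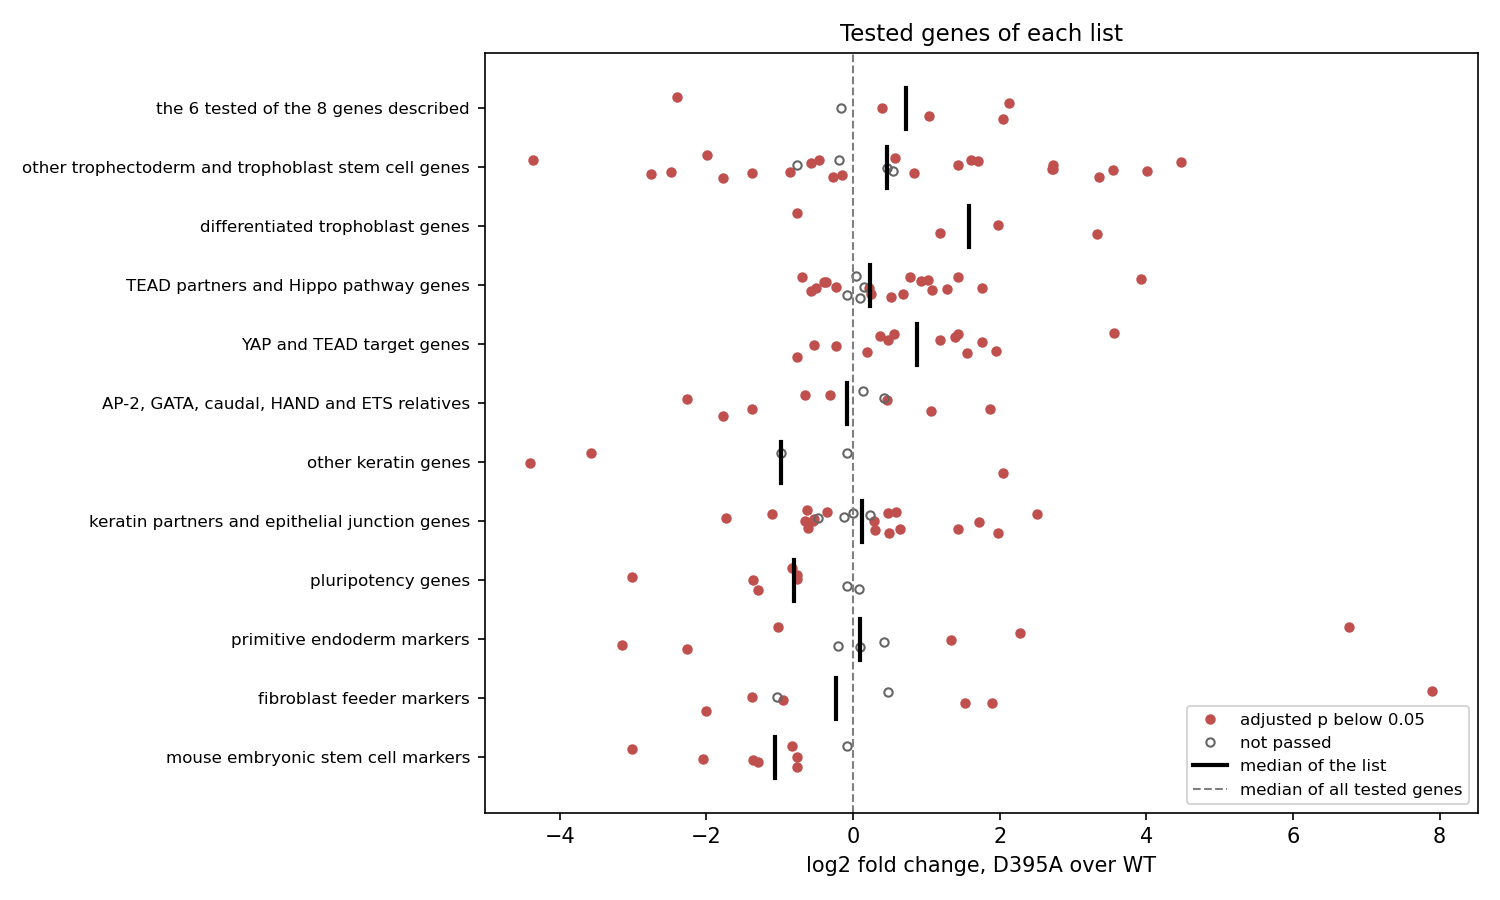
log2 fold change (D395A over WT) of each tested gene, by list, with filled points for an adjusted p below 0.05, open points for genes that did not pass, a bar at the list median and a dashed line at the median of all tested genes (0.00). The 6 tested genes of the set run from -2.40 (Tead4) to 2.12 (Cdx2), and the YAP and TEAD targets have a median of 0.87.

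Within 50 kb of the 8 genes lie 33 other genes, of which 13 were tested, with 3 higher and 3 lower, against 71.1% called in either direction over all tested genes. The neighbours called at least 2-fold all lie beside Tead4: 9330102E08Rik (2.38-fold higher), Gm44190 (2.1-fold lower) and Gm18609, which had 64 counts in D395A and none in WT, at least 21.4-fold higher with 3 counts over the group as the floor, and which shares 29.4% of its exonic bases with the opposite strand. Likeness was sought among 7048 candidates at 10 CPM or more with no exonic bases overlapped on the opposite strand. The genes whose 4 library values lay closest to Tead4 after centring on the WT mean were Manba, Slc15a1 and Ddah1. Their root mean square distances were 0.0249, 0.0380 and 0.0550 on the log2 scale. With 4 libraries centred in this way, a small distance mainly means a similar fold change. Among those closest to Tfap2c were Pcnx4 and Tsen15, at 0.0145 and 0.0147.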

How the data were processed

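RNA-seq (rRNA-depleted, directional kit, per the labels' protocols) and m6A immunoprecipitation of chromatin RNA were used here. The submitters' processing notes name HISAT2 2.1.0, featureCounts 1.6.3, MACS2 2.1.1 and edgeR 3.22.5 among their tools and mm10 as the mouse build. Whether counting used strand is not stated in what was used here. The deposited table holds raw counts per gene, with exon coordinates. Its column Da95A_1 differs by 1 character from the title D395A_1 and was taken as that sample. The deposited peak lists give fold enrichment, -log10 p, -log10 q and a score that is 10 times -log10 p in D395A and 10 times -log10 q in WT. The WT list stands for 2 immunoprecipitates and 2 inputs, the D395A list for 1 of each.

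Genes were kept with filterByExpr (17778 tested), scaled by TMM and compared in R 4.3.3 with edgeR 4.0.16 (glmQLFit, glmQLFTest, Benjamini-Hochberg, threshold 0.05), with no covariate. CPM use scaled library sizes, and levels between genes are CPM per kilobase of exon. The common dispersion was 0.003. Peaks were assigned to a gene when at least 1 base overlapped its body, and exon blocks are merged exons counted from the gene start. Alternatives were upper quartile scaling, DESeq2 1.42.0, other count filters, a replicate block, each library left out, and stricter peak rules. The code was checked on simulated data. Tables and figures used Python 3.11.15, pandas 2.3.3 and matplotlib 3.10.9.

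The members and lists were chosen with earlier results of these data known. All 8 genes are given. Of each list up to 6 called genes with the largest change and at least 1 CPM were to be named, with neighbours called at least 2-fold and the 3 genes most alike to each called gene at 10 CPM or more. Genes named outside this rule were chosen after their values were seen. Examples are Tead1 to Tead3, Cdx4, Tfap2b, Tfap2d, Hand2, Krt5, Krt14, Krt15, Krt19, Tulp3, Cat, Yap1 and Wwtr1. Others are Ctgf, Amotl2, Ankrd1, Prrx1, Sox2, Pgf, Dcn and Col1a2. The HEK293T and chromatin immunoprecipitation samples were not analysed here. Some genes that the rule names are not reported here.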

Additional observations from a re-analysis of the deposited data

How the results depend on the processing

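The calls did not depend on the settings tried. The alternative without genes overlapped on the opposite strand kept all 8 genes. Gata3, with 3.9% of exonic bases overlapped, stayed in it, so its call there does not check that overlap. The 5 genes called among the 8 were 5 under all 10 alternatives, and none of the 6 log2 fold changes changed sign or side of the threshold. Tead4 ran from -2.47 to -2.31, Cdx2 from 1.98 to 2.27, Gata3 from 1.85 to 2.22, Krt18 from 0.99 to 1.12, Tfap2c from 0.35 to 0.45 and Krt8 from -0.28 to -0.09, with adjusted p for Krt8 of 0.0745 to 0.592. Genes called overall numbered 12643 of 17778 tested in the main fit. They numbered 8528 of 12342 tested without genes overlapped on the opposite strand, an alternative added after the data were seen. The highest count was 13994 of 31364 tested, without a count filter. With a library left out the count was 11251 to 12697, and the called genes of the set 5 to 5. There, a lone library was taken to vary as the other genotype's libraries do. Replicate numbers did not pair the libraries by the labels, and deviations of same-numbered libraries correlated at 0.063. A replicate block gave 12895 calls and changed none of the 6. Without a count filter Elf5 and Hand1 had adjusted p of 0.579 and 0.445 (edgeR quasi-likelihood test). Of the 7 D395A peaks in the 8 genes, 0 had a fold enrichment of at least 4, 0 a -log10 q of at least 2, and 2 overlapped an exon. Of the 6 WT peaks, 3 overlapped an exon. Low counts limit Cdx2 and Gata3 in WT, and Hand1 and Elf5 throughout.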
